A study of Homo sapiens with 6 samples.

Results

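The IL-6 family axis was followed through 9 genes of TOV21G cells: the cytokines IL6, LIF and IL11, the receptor chains IL6R, IL6ST, LIFR and OSMR, the transcription factor STAT3 and its feedback inhibitor SOCS3. They were taken by gene symbol, but with earlier results of these data known, and are 9 of the 16910 gene rows of the table. All 9 passed the filter on low counts, IL11 with the lowest read counts, 14 and 15 in the control libraries.

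TOV21G is an established line of ovarian clear cell carcinoma, and 6 RNA-seq libraries of it were made, 2 in each of 3 groups. NC, labelled WT, is read as a control siRNA from its title. siGYS1 carries a knockdown of GYS1, the muscle-type glycogen synthase, and sip53 a knockdown of p53. All groups are the same line, and neither the time after transfection, the siRNA sequences, the number of siRNAs per target nor whether replicates were separate cultures is given in the sources used here, so p-values measure only the spread between these libraries.

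Cytokines of this family signal through receptor complexes that share the chain gp130, the product of IL6ST. IL-6 and IL-11 first bind a chain of their own (IL6R, IL11RA), whereas LIF pairs LIFR with gp130 and oncostatin M pairs OSMR or LIFR with gp130. JAK kinases on these chains phosphorylate STAT3, which enters the nucleus and induces genes that include SOCS3, whose product binds gp130 and the kinases and stops the signal. Clear cell carcinoma of the ovary is known for high IL-6 production.

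The bases before the RefSeq transcription starts of IL6 and IL11 are shown because these ligands had the highest level and the largest change of the 3 cytokines below. Each run has 250 bases, 5′ to 3′ on the gene's strand, from the RefSeq table of GRCh38.p14. IL6 lies on the plus strand at chr7:22726950-22727199 and IL11 on the minus strand at chr19:55370464-55370713. Capitals mark matches, on either strand, to the words TTCNNNGAA (STAT), TGANTCA (AP-1), TGACG (part of a cyclic AMP response element) and the NF-kB word, which is GGG and CC with any 5 bases between them.
IL6: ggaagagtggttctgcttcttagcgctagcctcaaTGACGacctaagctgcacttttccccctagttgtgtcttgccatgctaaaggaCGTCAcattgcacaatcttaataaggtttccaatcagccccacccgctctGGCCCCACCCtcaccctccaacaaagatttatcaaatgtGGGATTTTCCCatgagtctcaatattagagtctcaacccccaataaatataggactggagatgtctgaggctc
IL11: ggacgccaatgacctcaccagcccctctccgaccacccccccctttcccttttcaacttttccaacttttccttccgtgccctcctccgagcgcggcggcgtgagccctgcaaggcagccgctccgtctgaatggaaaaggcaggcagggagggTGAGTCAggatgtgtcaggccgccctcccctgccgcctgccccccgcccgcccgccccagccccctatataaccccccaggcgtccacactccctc

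In the IL6 window the NF-kB word starts 112, 73 and 72 bases before the start, and the last 2 of these matches overlap each other. The TGACG word stands there at 215 and 162 bases, the latter on the other strand. In the IL11 window the AP-1 word TGAGTCA starts 96 bases before the start, and no other word was found. Of 35116 windows of this length, 54.43% hold the NF-kB word, 21.22% TGACG, 6.57% the AP-1 word and 6.57% the STAT word. Windows were found for 8 of the 9 genes, LIF being the exception. Among these windows the STAT word was found in those of LIFR alone. The windows of SOCS3 (chr17:78360926-78361175 and chr17:78359668-78359917) leave out the bases directly before its GENCODE start at 78360077, which were not searched. Those of LIFR all lie inside its GENCODE gene. The RefSeq start of IL6 lies downstream of the gene start that GENCODE gives. These matches describe letters, not binding.

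In control cells the ligand IL6 was by far the most abundant of the 9 transcripts per length. In read counts scaled to library size (CPM) its lead in the NC libraries was small, at 195.5 and 200.04 against 183.93 and 168.64 for STAT3. The FPKM of IL6 divide there by 643 and 646 bases, and those of STAT3 by 4196 and 4487. IL6 (chromosome 7, 22725884 to 22732002 in GENCODE 29, GRCh38) was at 315.95 and 318.94 FPKM in the 2 NC libraries, which placed it 279th and 307th of the 16910 genes. STAT3 (chromosome 17, 42313324 to 42388568) followed at 45.56 and 38.69 FPKM, then OSMR at 26.37 and 21.11, IL6ST at 21.16 and 17.52 and LIF (chromosome 22) at 18.19 and 17.57. The NC ranges of OSMR and IL6ST overlapped, although OSMR was the higher within each of the 2 libraries. IL6ST and LIF overlapped too, and their order differed between the 2 libraries, so it is not resolved. LIFR, which lies on chromosome 5 with OSMR and IL6ST, was at 5.02 and 3.99 FPKM, and SOCS3 (chromosome 17) at 4.41 and 4.73, within the LIFR range. The lowest levels were those of IL6R (chromosome 1, 154405193 to 154469450), at 0.73 and 0.61 FPKM, and of IL11 (chromosome 19, 55364389 to 55370463), at 0.44 and 0.55. Control cells thus held the IL6 ligand transcript at 432.8 and 522.9 times the FPKM of its own receptor chain, and that chain at 3.45% and 3.48% of the FPKM of the shared chain IL6ST.

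**Figure D1:**
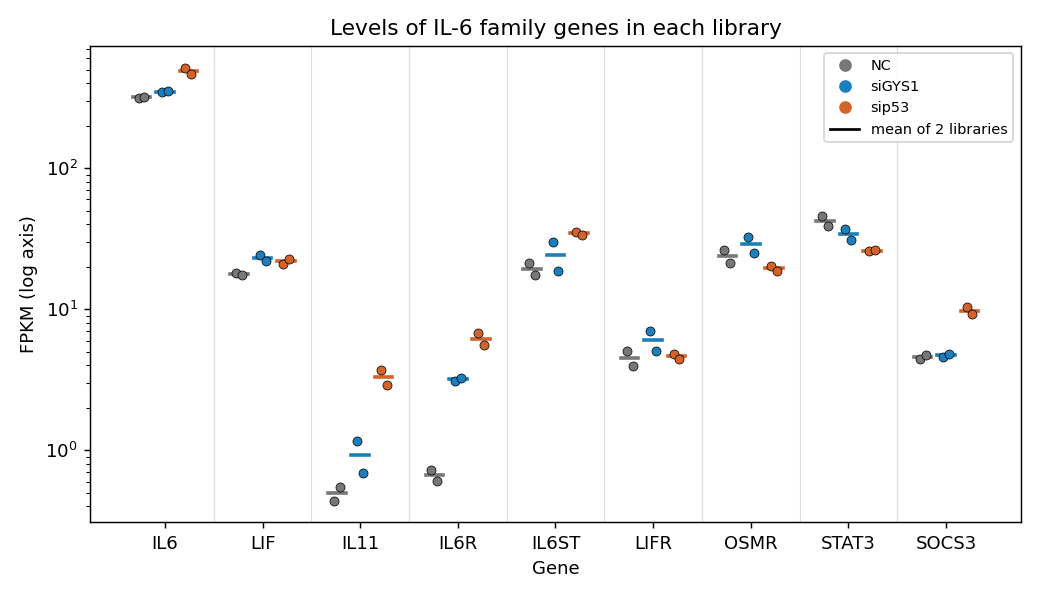
FPKM (fragments per kilobase of transcript, scaled to library size, log axis) of the 9 genes in each of the 6 libraries, with a bar at the mean of the 2 libraries of a group. IL6 sits at 315.95 FPKM or above in every library, while IL6R and IL11 are below 1 FPKM with NC and at 2.90 FPKM or above with sip53.

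With sip53, 7 of the 9 genes changed against NC, 6 of them higher and 1 lower; with siGYS1, 2 changed, both higher. These calls are edgeR quasi-likelihood tests with a Benjamini-Hochberg adjusted p below 0.05 over 13235 tested genes. Among all tested genes 49.9% changed with sip53 (23.4% higher, 26.5% lower) and 19.7% with siGYS1 (10.4% higher, 9.24% lower), so 2 of 9 is near the background of siGYS1. The median log2 fold change of the 9 genes was 0.70 with sip53 and 0.24 with siGYS1, beside -0.029 and -0.009 for all tested genes. Both comparisons use the same 2 NC libraries.

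**Figure D2:**
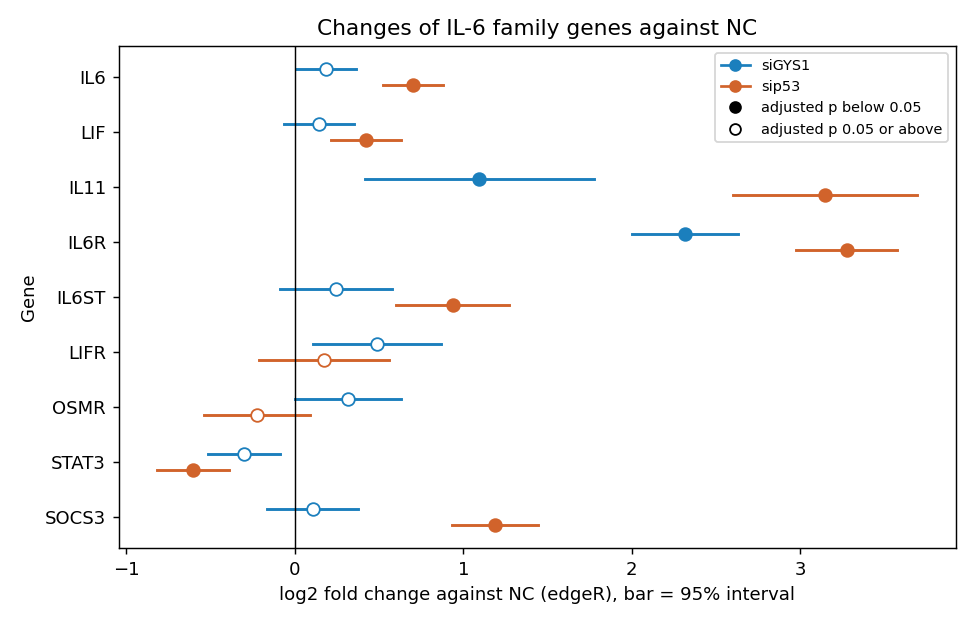
The log2 fold change against NC of each gene with siGYS1 and sip53, from edgeR, with its 95% interval; filled points have an adjusted p below 0.05. IL6R and IL11 lie farthest to the right in both comparisons, and STAT3 is the sole filled point left of 0.

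The siGYS1 label was checked against GYS1 itself, at 28.57 and 27.26 FPKM with NC, 30.38 and 31.39 with sip53 and 1.69 and 1.67 with siGYS1, which is 6.29% of NC (edgeR log2 fold change -3.99, adjusted p = 1.28e-07). Library totals ran from 17425000 to 18097337 read counts. The libraries did not share 1 dependence on transcript length: relative to the 6-library mean, log2 CPM (read counts scaled to library size) rose with length in siGYS1 replicate 1 (Spearman rho 0.54 across 11167 genes) and fell in NC replicate 2 (-0.39), against -0.08 to 0.04 in the other 4. The receptor chains IL6ST and LIFR have long transcripts, so a value with this trend removed is given beside their results. Of the markers of clear cell carcinoma, PAX8 was at 155.85 and 144.38 FPKM with NC, while NAPSA was below 0.5. Endothelial markers summed to 0.71 to 0.88 FPKM with NC, 0.63 to 0.64 with siGYS1 and 1.32 to 1.93 with sip53 (5 of 7 listed genes analysed). Leukocyte markers, 7 of 10 analysed, summed to 14.84 to 15.66, 11.46 to 12.16 and 13.72 to 14.94 FPKM, most of it CORO1A and CD68, which went opposite ways with sip53 (edgeR log2 -0.54, adjusted p = 0.00978, and 0.81, adjusted p = 0.0015). The sip53 call of CORO1A is lost with DESeq2 and without NC replicate 2 or either sip53 library. Fibroblast markers summed to 177.54 to 177.83, 145.02 to 155.28 and 92.72 to 93.32 FPKM, mostly COL1A2, which fell with sip53 (edgeR log2 -0.88, adjusted p = 2.3e-05), and COL1A1. DCN went the other way on counts with sip53 (edgeR log2 4.23, adjusted p = 2.88e-05). Its FPKM were 0.31 and 6.97 with NC and 4.47 and 3.12 with sip53, and on log2(FPKM + 1) the limma value was 0.56 (adjusted p = 0.53). COL3A1, LUM, FAP and POSTN were below 0.1 FPKM in every library. Epithelial and clear cell markers, 9 of 9 analysed, summed to 660.93 to 677.44, 491.92 to 553.33 and 529.21 to 539.61 FPKM. No marker was at 0 in all libraries, and the part of such cells in the results was not tested. PTPRC, CD3E, MS4A1, KDR and TEK were not analysed here.

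Among the ligands, IL6 rose with sip53. It was at 516.42 and 467.28 FPKM, above both NC libraries, and the fit gave a 1.63-fold rise (log2 0.70, SE 0.08, adjusted p = 8.82e-05). With siGYS1 both libraries also lay above both NC libraries, at 348.85 and 350.08 FPKM, but the difference did not pass (log2 0.18, 95% interval 0.0053 to 0.36, adjusted p = 0.133). IL6 has a short transcript, and with the length trend removed this value was 0.33 with an adjusted p of 0.0048. The difference between the 2 knockdowns was itself called (siGYS1 against sip53, log2 -0.52, SE 0.08, adjusted p = 0.000664), so the order was sip53 above siGYS1, with siGYS1 and NC not separated by the test. In these bulk libraries more cells expressing a gene and more RNA per cell cannot be told apart.

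IL11, a cytokine known for its part in fibrosis and haematopoiesis, had the largest relative change of the ligands from the lowest level. It went from 0.44 and 0.55 FPKM with NC to 1.17 and 0.69 with siGYS1 and 3.71 and 2.90 with sip53, with no overlap between any of the 3 groups. The rise with sip53 was 8.88-fold (log2 3.15, SE 0.24, adjusted p = 8.32e-06), and on log2(FPKM + 1), which compresses low genes, the value was 1.52. The rise with siGYS1 was 2.14-fold (log2 1.10, SE 0.30, adjusted p = 0.0319), resting on read counts of 33 and 26 against 14 and 15. That call is lost in 9 of 15 alternatives, among them DESeq2 (adjusted p = 0.0768) and log2(FPKM + 1), where the value is 0.36. Leaving out NC replicate 1 or 2 gave adjusted p = 0.108 or 0.129, leaving out replicate 1 of siGYS1 gave 0.145, and leaving out sip53 replicate 1 or 2 gave 0.058 or 0.0541. siGYS1 lay 2.05 log2 units below sip53 (log2 -2.05, SE 0.22, adjusted p = 6.69e-05).

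LIF, a cytokine that keeps mouse embryonic stem cells undifferentiated and acts through LIFR and gp130, changed less. Its CPM, which follow the tested counts, were 59.05 and 59.31 with NC, 65.73 and 64.79 with siGYS1 and 74.63 and 84.08 with sip53. The rise with sip53 passed (log2 0.42, SE 0.09, adjusted p = 0.00406), although not without sip53 replicate 2 (0.33, adjusted p = 0.065), and that with siGYS1 did not (log2 0.14, 95% interval -0.07 to 0.35, adjusted p = 0.313). On FPKM the order was another one, at 18.19 and 17.57 with NC, 24.39 and 21.82 with siGYS1 and 21.01 and 22.71 with sip53. The scales differ by the length that divides the count in the deposited FPKM, which can be read back from count, FPKM and library total. It was 3374 and 3475 bases with NC, 3435 and 3596 with sip53, and 2685 and 2959 with siGYS1. On log2(FPKM + 0.1) the siGYS1 value against NC was 0.37 and passed in limma (adjusted p = 0.0482), and on log2(FPKM + 1) the sip53 value was 0.275 and did not (adjusted p = 0.0506). The call of siGYS1 below sip53 on counts (log2 -0.28, adjusted p = 0.0325) therefore turns to 0.08 on log2(FPKM + 0.1), where neither direction passes (adjusted p = 0.582), and it is also lost without either NC or either sip53 library, at adjusted p = 0.0561 to 0.278. No such shift was seen for IL6 (613 to 656 bases) or SOCS3 (2442 to 2459 bases).

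Of the other ligands, 8 were listed and 5 could be tested. With sip53 0 of these 5 rose and 2 fell, and with siGYS1 0 rose and 1 fell, beside 49.9% and 19.7% of all tested genes changed, so both counts are near the background. CTF1, which encodes cardiotrophin-1, a ligand of the LIFR complex, fell in both, from 3.28 and 3.11 FPKM with NC to 1.54 and 1.84 with siGYS1 (log2 -0.86, SE 0.22, adjusted p = 0.0246) and 0.90 and 1.3 with sip53 (log2 -1.42, SE 0.24, adjusted p = 0.000844). The siGYS1 call of CTF1 is lost with DESeq2 (adjusted p = 0.135) and without NC replicate 1, NC replicate 2 or siGYS1 replicate 1. EBI3, a subunit of interleukin-27 and interleukin-35, was abundant at 24.89 to 28.62 FPKM in all 6 libraries and not called in any comparison. The transcript of oncostatin M, OSM, was at or below 0.51 FPKM in all libraries and too low to test, although the cells carried OSMR.

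Among the receptor chains IL6R moved most, and it rose in both knockdowns. Its product binds IL-6 before gp130 joins. It stood at 0.73 and 0.61 FPKM with NC, 3.09 and 3.27 with siGYS1 and 6.74 and 5.59 with sip53, 3 ranges that did not overlap. The rises were 4.98-fold with siGYS1 (log2 2.32, SE 0.14, adjusted p = 3.42e-05) and 9.69-fold with sip53 (log2 3.28, SE 0.13, adjusted p = 2.66e-07). The level with siGYS1 was 51.4% of that with sip53 (log2 -0.96, SE 0.11, adjusted p = 0.000113). Each of these 3 calls held in all 15 alternatives. On log2(FPKM + 1) the changes against NC were 1.32 and 2.10.

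IL6ST, the shared signal-transducing chain, rose with sip53 and was spread widely within siGYS1. It was at 35.46 and 33.82 FPKM with sip53 against 21.16 and 17.52 with NC, a 1.91-fold rise by the fit (log2 0.94, SE 0.15, adjusted p = 0.000658). With siGYS1 it was at 30.18 in replicate 1 and 18.53 in replicate 2, the latter inside the NC range (log2 0.24, 95% interval -0.09 to 0.58, adjusted p = 0.273). That estimate, made on counts, rests on siGYS1 replicate 1 (212.75 CPM against 151.73 in replicate 2), the library whose counts rose with transcript length. It was -0.02 without that library, 0.49 without siGYS1 replicate 2, and -0.02 with the length trend removed. The FPKM of IL6ST in siGYS1 replicate 1 also divide by 7022 bases against 8161 to 8253 in the others, which bears on FPKM and not on the counts. With sip53 the value with the trend removed was 0.88, still called.

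The ratio of both chains of the IL-6 receptor is given as a description. IL6R was at 3.45% and 3.48% of the IL6ST level with NC, 10.2% and 17.6% with siGYS1 and 19.0% and 16.5% with sip53, all per length. The 10.2% of siGYS1 replicate 1 uses the IL6ST FPKM with the shorter length of 7022 bases. Both knockdowns were above NC in this ratio, and they overlapped each other. The ratio of the IL6 ligand to IL6R was 112.9 and 107.1 with siGYS1 and 76.6 and 83.6 with sip53. IL6R stayed the scarcer chain in every library.

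LIFR and OSMR, the partner chains for LIF and oncostatin M, did not pass against NC in either knockdown. LIFR was at 5.02 and 3.99 FPKM with NC, 6.98 and 5.06 with siGYS1 and 4.8 and 4.45 with sip53. Its log2 fold change was 0.49 with siGYS1 (95% interval 0.10 to 0.87, adjusted p = 0.073) and 0.17 with sip53 (interval -0.21 to 0.56, adjusted p = 0.430). In DESeq2 the siGYS1 value passed (0.50, adjusted p = 0.0305). The siGYS1 value was 0.76 without siGYS1 replicate 2 (adjusted p = 8.93e-05), 0.18 without siGYS1 replicate 1 and 0.19 with the length trend removed. OSMR was at 26.37 and 21.11 FPKM with NC, 32.69 and 25.02 with siGYS1 and 20.39 and 18.62 with sip53. Its log2 fold change was 0.32 with siGYS1 (interval 0.0018 to 0.63, adjusted p = 0.141) and -0.23 with sip53 (interval -0.54 to 0.09, adjusted p = 0.211). With the length trend removed it was 0.19 with siGYS1 (edgeR adjusted p = 0.112) and -0.25 with sip53, the latter called (adjusted p = 0.0222). It was 0.51 with siGYS1 when siGYS1 replicate 2 was left out (adjusted p = 0.00271) and 0.12 when replicate 1 was. The 2 knockdowns did differ from each other in OSMR, with siGYS1 higher (log2 0.54, SE 0.14, adjusted p = 0.0117), a call lost without sip53 replicate 1 (adjusted p = 0.0644) or replicate 2 (0.1).

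Of the other receptor chains and the enzymes that shed IL6R from the cell surface, 5 of 6 could be tested. With sip53 2 rose and 2 fell, and with siGYS1 0 rose and 0 fell, beside 49.9% and 19.7% of all tested genes changed. Both shedding proteases changed with sip53 in opposite directions. ADAM17, the protease of stimulated shedding, rose from 18.43 and 15.11 FPKM to 34.24 and 31.79 (log2 1.08, SE 0.11, adjusted p = 4.65e-05). ADAM10 fell from 170.39 and 141.36 FPKM to 70.41 and 56.04 (log2 -1.3, SE 0.11, adjusted p = 1.34e-05). ADAM10 was at 9.25 and 9.36 times the FPKM of ADAM17 with NC and at 2.06 and 1.76 times with sip53, so the more abundant protease stayed the same. With siGYS1 ADAM10 was at 238.11 and 161.43 FPKM (log2 0.21, adjusted p = 0.183) and ADAM17 at 19.89 and 17.18 (log2 0.19, adjusted p = 0.266); the ADAM10 value passed without siGYS1 replicate 2. IL27RA, the receptor of interleukin-27, rose with sip53 (log2 0.54, SE 0.09, adjusted p = 0.000734), and IL31RA, which pairs with OSMR to bind interleukin-31, fell (log2 -0.69, SE 0.12, adjusted p = 0.00112). IL11RA, the own chain of IL-11, was below 1.2 FPKM in all libraries and not called.

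STAT3, the main transcription factor of this axis, was the member that fell. It stood at 45.56 and 38.69 FPKM with NC, 37.33 and 30.81 with siGYS1 and 25.68 and 26.10 with sip53. The NC and siGYS1 ranges did not overlap, and both sip53 libraries were below all others. With sip53 it fell to 65.7% of NC (log2 -0.61, SE 0.10, adjusted p = 0.000629). With siGYS1 it was at 81.2% of NC and just missed the threshold (log2 -0.30, 95% interval -0.51 to -0.09, adjusted p = 0.0521). It passed without siGYS1 replicate 1 (log2 -0.39, adjusted p = 0.0153), with the length trend removed (-0.41, adjusted p = 0.000283) and in 2 other alternatives. STAT3 was higher with siGYS1 than with sip53 (log2 0.31, SE 0.10, adjusted p = 0.0272), a call lost without siGYS1 replicate 1 or either sip53 library (adjusted p = 0.109 to 0.176).

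SOCS3 rose with sip53, opposite to STAT3. It was at 10.30 and 9.18 FPKM, above 4.41 and 4.73 with NC, which is 2.28-fold by the fit (log2 1.19, SE 0.11, adjusted p = 3.12e-05). With siGYS1 it was at 4.61 and 4.82 FPKM, overlapping NC. On CPM it was at 11.35 and 11.89 against 10.39 and 11.22 with NC, without overlap. The difference did not pass (edgeR log2 0.10, 95% interval -0.17 to 0.38, adjusted p = 0.573). The 2 knockdowns differed (log2 -1.08, SE 0.11, adjusted p = 6.86e-05). The FPKM of SOCS3 were 9.68% and 12.2% of those of STAT3 with NC, 12.3% and 15.6% with siGYS1, and 40.1% and 35.2% with sip53.

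Directly compared, siGYS1 and sip53 differed in 8 of the 9 genes, 6 lower and 2 higher with siGYS1. Of all tested genes 43.4% differed between the knockdowns (22.5% higher and 20.9% lower with siGYS1). The 6 lower genes were IL6, IL11, LIF, IL6R, IL6ST and SOCS3, and the 2 higher ones OSMR and STAT3. The IL6ST call (log2 -0.69, adjusted p = 0.00433) is lost in limma on log2(FPKM + 1) (-0.53, adjusted p = 0.0701) and log2(FPKM + 0.1) (-0.55, adjusted p = 0.0647). Its value was -0.95 without siGYS1 replicate 1 and -0.47 without siGYS1 replicate 2. LIFR was not called (log2 0.31, 95% interval -0.07 to 0.69, adjusted p = 0.164). The count of 8 is 5 without sip53 replicate 1 and 5 without sip53 replicate 2.

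**Figure D3:**
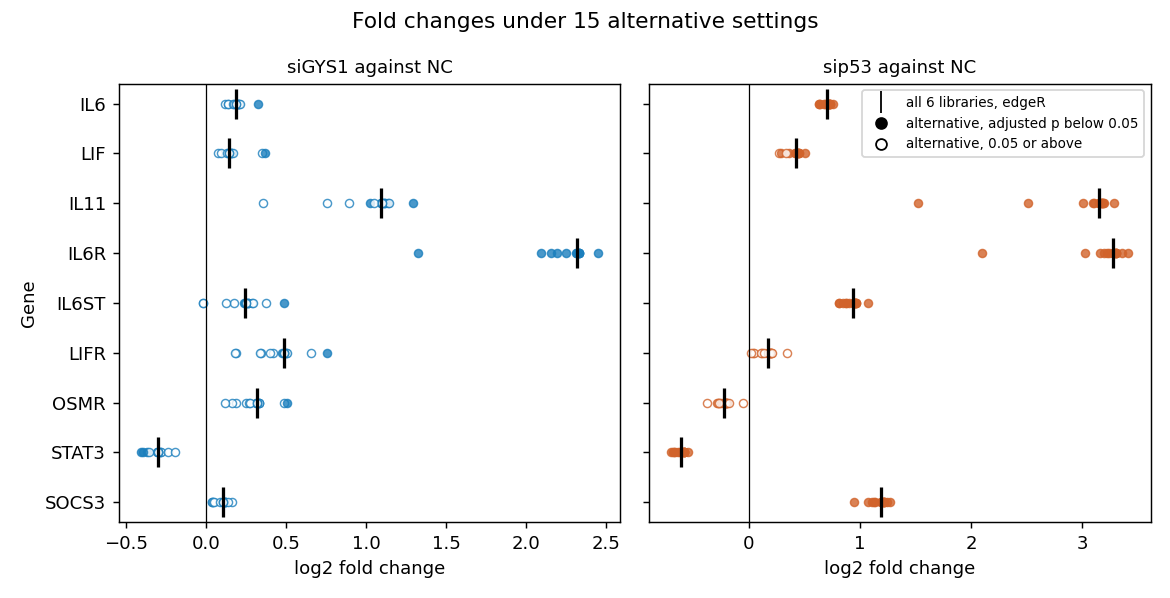
The log2 fold change of the 9 genes against NC under each of 15 alternative settings (circles, filled where the adjusted p is below 0.05) beside the value of the 6-library edgeR fit (black tick). With siGYS1 the circles of IL6ST run from -0.02 to 0.49, whereas IL6R stays filled throughout. With sip53 the circles of IL6, IL11, IL6R, IL6ST, STAT3 and SOCS3 stay filled.

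Calls among the kinases and other STAT factors had both directions in each knockdown. Of 9 tested genes out of 10, 2 rose and 2 fell with siGYS1, and 3 rose and 2 fell with sip53, beside 19.7% and 49.9% of all tested genes changed; 5 of 9 with sip53 is near the background. JAK1, the kinase most needed for gp130 signals, rose in both, from 6.57 and 7.0 FPKM with NC to 9.65 and 9.27 with sip53 (log2 0.58, SE 0.09, adjusted p = 0.000703) and 9.72 and 9.99 with siGYS1 (log2 0.71, SE 0.09, adjusted p = 0.00110). JAK3, a kinase of the common gamma chain receptors, fell in both (log2 -0.53 with siGYS1, adjusted p = 0.00919, and -0.67 with sip53, adjusted p = 0.000732). The siGYS1 fall of JAK3 is lost without NC replicate 2. STAT5B rose with sip53, from 0.82 and 0.55 to 1.96 and 2.00 FPKM (log2 1.63, SE 0.20, adjusted p = 0.000139), and not with siGYS1 (log2 -0.06, adjusted p = 0.871).

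Of the negative regulators other than SOCS3, 15 of 16 listed genes were tested. With siGYS1 1 rose and 0 fell, and with sip53 5 rose and 3 fell, beside 19.7% and 49.9% of all tested genes changed, so 8 of 15 with sip53 is near the background. PTPN1, a phosphatase of JAK kinases, rose in both, from 17.12 and 16.78 FPKM to 21.29 and 20.83 with siGYS1 (log2 0.40, SE 0.09, adjusted p = 0.0122; lost without either NC library) and 24.29 and 26.20 with sip53 (log2 0.69, SE 0.09, adjusted p = 0.000158). SOCS2, which acts on growth hormone signals, fell with sip53 (log2 -0.67, SE 0.11, adjusted p = 0.000913) where SOCS3 rose, and SOCS5 rose (log2 0.55, SE 0.11, adjusted p = 0.00265). PTPN6, which encodes the phosphatase SHP-1, fell with sip53 (log2 -0.69, SE 0.13, adjusted p = 0.00166).

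Genes known as STAT3 targets split in both comparisons. Of 23 tested out of 31 listed, 5 rose and 5 fell with siGYS1 (median log2 fold change -0.07) and 9 rose and 3 fell with sip53 (median 0.24). These shares stand beside 10.4% higher and 9.24% lower among all genes with siGYS1, and 23.4% and 26.5% with sip53. Most of the listed genes have other inducers too. SERPINA3, an acute phase protease inhibitor, rose with sip53 from 0.56 and 0.65 to 2.92 and 2.69 FPKM (log2 2.34, SE 0.26, adjusted p = 6.86e-05) and not with siGYS1 (log2 -0.27, adjusted p = 0.661). CEBPB, a transcription factor of the acute phase response that also acts on the IL6 gene, rose with sip53 from 10.31 and 10.29 to 28.41 and 29.28 FPKM (log2 1.59, SE 0.11, adjusted p = 4.26e-06). Its rise with siGYS1 (log2 0.42, SE 0.11, adjusted p = 0.0299) is lost in 9 of 15 alternatives, among them leaving out either NC library, siGYS1 replicate 2 or either sip53 library. PIM1, a survival kinase, had the other pattern: it rose with siGYS1 from 2.08 and 1.54 to 4.07 and 4.66 FPKM (log2 1.33, SE 0.17, adjusted p = 0.00108) and stood at 2.29 and 2.17 with sip53 (log2 0.40, adjusted p = 0.0993, and 0.0448 without NC replicate 1). FOS fell in both, by 0.63 log2 units with siGYS1 (SE 0.15, adjusted p = 0.0185) and 1.38 with sip53 (SE 0.16, adjusted p = 9.94e-05), the former lost with DESeq2 (adjusted p = 0.0805) and without either NC library or siGYS1 replicate 1.

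**Figure D4:**
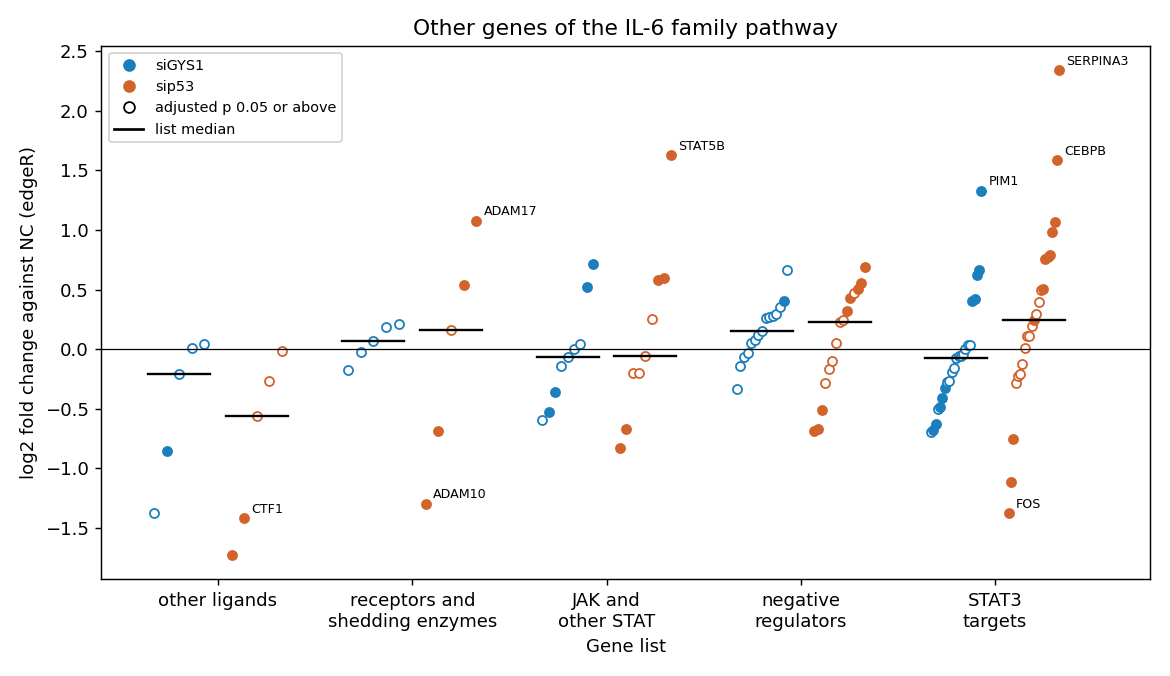
The log2 fold change against NC of each tested gene in 5 lists around the IL-6 family axis, with siGYS1 and sip53 side by side; filled points have an adjusted p below 0.05 and black bars are list medians. SERPINA3, STAT5B, CEBPB and ADAM17 are the highest labelled points with sip53, and PIM1 is the highest with siGYS1.

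Genes whose pattern over the 6 libraries lay closest to a member were taken for IL6R, IL11 and SOCS3, whose group means of log2 CPM span at least 1. Likeness is the root mean square difference of log2 CPM over the 6 libraries, each gene centred on its own mean, among 13226 other tested genes. Closest to IL6R were CA9 (0.204) and OASL (0.206), which encode a carbonic anhydrase and an interferon-induced protein, then RNF223 (0.278). Closest to IL11 were NDRG1 (0.086), the transporter gene SLC16A6 (0.094) and the chemokine gene CXCL8 (0.143). Among the 3 closest to SOCS3 were FAM214B (0.061) and SDCBP (0.073). These are descriptions over 3 groups of 2 libraries.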

How the data were processed

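Of 6 RNA-seq libraries (NC, siGYS1, sip53; 2 each) the read counts and FPKM of 16910 genes were used. Per the file headers the authors deposited FPKM and a read count. The deposited read count was taken as an expected count, since 16.8% to 18.1% of the values in a library are not whole (tolerance 1e-09). Per the submitters' processing notes the tools include aligners (HISAT2, STAR, TopHat) and counters (Salmon, featureCounts, HTSeq), with no role stated, and the build mm10, although the gene identifiers are human. Which of them made the table, and whether strand was used, is not stated in any source used. The labels' protocol text is generic and names poly(A) enrichment. FPKM per gene follow a length that can differ between libraries.

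Counts were rounded and fitted in edgeR 4.0.16 (R 4.3.3): filterByExpr (minimum count 10; 13235 of 16910 genes kept), TMM, glmQLFit and glmQLFTest with group as sole term over all 6 libraries, Benjamini-Hochberg over all tested genes, adjusted p below 0.05. SE is the absolute log2 fold change over the square root of F. Alternatives were RLE and upper quartile factors, DESeq2 1.42.0, no filter, 2-group fits, a replicate block, limma 3.58.1 on log2(FPKM + 1) and log2(FPKM + 0.1), offsets that remove the lowess trend on length (span 0.3), and each library left out. The procedure was tested on simulated data. Each library was counted as 1 sample. Replicates differed beyond sampling noise (chi-square per degree of freedom 3.63 to 17.48), which does not show whether they were separate cultures.

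The 9 genes, the lists and the tests were chosen with earlier results of these data known. Named list genes are up to 4 per list with the largest called change against NC and a mean FPKM of at least 1; EBI3, OSM, IL11RA, PAX8, NAPSA and the low fibroblast markers were named after their values were seen. The transcript targeted by sip53 and some genes that the naming rule picks are not reported here.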

Additional observations from a re-analysis of the deposited data

How the results depend on the processing

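Of 135 member values per comparison (9 genes, 15 alternatives), 131 kept direction and side of the threshold for sip53 against NC, 111 for siGYS1 against NC and 119 for siGYS1 against sip53. The count of members changed with siGYS1 is 2 in the 6-library fit, 1 when only both compared groups are fitted, 4 with the length trend removed and 1 to 5 when single libraries are left out; the count of all genes goes from 2602 to 1577, 4061 and 926 to 4260. For siGYS1 against sip53 leaving out single libraries gives 5 to 9 members and 3416 to 6337 genes, and for sip53 against NC 4271 to 7621 genes, against 8, 5745 and 6605.

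Equal replicate numbers are not stated to pair libraries. Differences between replicates 1 and 2 correlated across 11187 genes at 0.591 (NC and siGYS1), 0.118 (NC and sip53) and 0.265 (siGYS1 and sip53). With a replicate block 6 members and 4662 genes changed with siGYS1: IL6ST (0.23, adjusted p = 0.0449), LIFR (0.48, 0.00101), OSMR (0.31, 0.00564) and STAT3 (-0.30, 0.0054) joined IL6R and IL11. With the block OSMR also passed with sip53 (-0.22, 0.0297) and LIFR between the knockdowns (0.29, 0.0162).

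Values that changed sign were those of IL6ST with siGYS1 (-0.020 with the length trend removed, -0.019 to 0.486 with single libraries left out, the lowest without siGYS1 replicate 1) and LIF between the knockdowns (0.075 and 0.078 on FPKM). In siGYS1 against NC so did uncalled values of COL1A1 (-0.025 with upper quartile factors, -0.147 and -0.157 on FPKM, -0.037 with the length trend removed), DCN (-1.331 and -2.155 on FPKM, -0.161 to 1.089 with single libraries left out), IL31RA (-0.000 with upper quartile factors, -0.109 with the trend removed and, with single libraries left out, -0.099 to 0.239), SOCS2 (0.044 with the trend removed, -0.134 to 0.074 with single libraries left out) and STAT5B (-0.310 to 0.235 with single libraries left out, of which 0.142 without siGYS1 replicate 2). The causes were not tested. Depth limits IL11 most, at 14 and 15 reads with NC.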
